A study of Rattus norvegicus with 18 samples.

Results

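Mitochondrial complex I, the NADH:ubiquinone oxidoreductase, was described through the nuclear genes whose symbol begins with Nduf. All genes with 1 symbol of that form in the array's annotation were taken, whatever their values, and a gene with several probe sets was represented by its brightest one, judged by the mean of the 18 arrays. This gave 37 genes, from 41 probe sets, of the 14324 genes with 1 symbol on the array. They comprise 6 core subunits (Ndufv1, Ndufv2, Ndufs1, Ndufs3, Ndufs7 and Ndufs8), 8 of 9 accessory subunits of the peripheral arm, Ndufab1, 17 of 20 accessory subunits of the membrane arm, 3 of 8 assembly factors (Ndufaf1, Ndufaf3 and Ndufaf4), Ndufa4, and Ndufs6-ps1. Other genes of these lists were not analysed here.

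Complex I oxidises NADH in its peripheral arm, passes the electrons along iron-sulfur clusters to ubiquinone, and pumps protons across the inner mitochondrial membrane with its membrane arm. Core subunits carry the cofactors and the pump, of which the membrane core is encoded in mitochondrial DNA and is outside this gene set, and accessory subunits surround the core and are needed for its assembly and stability. Low oxygen is known to reduce mitochondrial respiration in many cells, and a hypoxia-induced paralog of Ndufa4 has been linked to lower complex I activity. Ndufa4 itself, named as a complex I subunit, is now counted with cytochrome c oxidase.

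The study measured RNA of 9L, a rat gliosarcoma cell line, in tumours and in culture. Tumours were started by subcutaneous injection of 9L cells into 6-week-old male rats of the Fischer strain F344/Ncr, passaged as pieces, and then grown from pieces tied onto the epigastric artery and vein. Regions that bound EF5, a nitroimidazole retained by cells at low oxygen, and regions that did not were laser-captured from each of 3 tumours and are called hypoxic and normoxic regions. Cultures of 9L were kept at about 20% oxygen (normoxic) or 0.2% oxygen (hypoxic), for 6 h or for 16 h. Each of the 6 groups held 3 arrays, and total RNA (2 ng) was amplified before hybridization to Affymetrix Rat Gene ST arrays. The labels number the tumours and the cultures but do not say whether the cultures were separate experiments, so p-values measure the spread between these samples. A captured region holds host cells beside 9L cells, and in such bulk samples fewer cells of a type and less RNA per cell cannot be told apart.

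Values are log2 probe set signals, on which a difference of 1 is a doubling. Mean levels of the 37 genes over all arrays ran from 7.10 (Ndufaf3) to 12.16 (Ndufa1), and 35 of the 37 lay in the brightest 25% of the 27363 probe sets, so this bright class is given beside all probe sets. The markers named for the complex, Ndufs1 and Ndufa9, had means of 9.27 and 9.44 against a median of 6.26 over all probe sets. Hypoxia check genes moved as labelled: Car9, a carbonic anhydrase, was higher by 1.60 ± 0.19 (SE) at 6 h and 1.54 ± 0.19 at 16 h (limma adjusted p = 0.00166 and 0.00118), and 5 of 6 such genes passed the test at each time. In tumours Car9 was higher by 1.94 ± 0.19, with an adjusted p of 0.141. Culture arrays correlated more closely with the mean of the 6 normoxic cultures than did tumour arrays, in part because 6 of them form that mean. Among tumour arrays the normoxic region of tumour 3 stood nearest to culture (r = 0.9409, against 0.8647 to 0.8924 for the other 5, across probe sets). Results that use this array are given without it where that changes them.

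Promoter sequences are shown for 4 of the 5 genes whose response differed between tumours and cultures, and for Ndufa3, which had the highest tumour difference. Ndufs6-ps1 has no entry. Each is the 150 bases before the annotated start used for the gene's promoter entry, 5′ to 3′ on the gene's strand (minus for all 5), from RefSeq, build GRCr8. The Ndufs5 stretch lies within the annotated gene, whose 5′ end is at 141264552, and the others lie just outside theirs. Capitals mark TGCGCA, the core recognised by the nuclear respiratory factor Nrf1, or ACGTG, the core of the hypoxia response element, found on either strand.
Ndufs5, chr5:141264403-141264552: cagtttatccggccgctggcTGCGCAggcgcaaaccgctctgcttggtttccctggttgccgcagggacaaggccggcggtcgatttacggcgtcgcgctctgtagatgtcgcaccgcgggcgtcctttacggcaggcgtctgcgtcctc
Ndufa6, chr7:115750318-115750467: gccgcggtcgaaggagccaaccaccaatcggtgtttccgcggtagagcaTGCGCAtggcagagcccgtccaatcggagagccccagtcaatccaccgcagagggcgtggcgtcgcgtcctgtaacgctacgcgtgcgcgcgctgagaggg
Ndufb10, chr10:14255967-14256116: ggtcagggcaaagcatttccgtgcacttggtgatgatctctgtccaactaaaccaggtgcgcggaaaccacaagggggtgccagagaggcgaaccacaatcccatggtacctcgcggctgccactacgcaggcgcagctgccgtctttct
Ndufs1, chr9:72073606-72073755: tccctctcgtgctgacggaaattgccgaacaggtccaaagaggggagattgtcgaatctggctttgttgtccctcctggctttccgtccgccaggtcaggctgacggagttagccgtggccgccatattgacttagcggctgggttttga
Ndufa3, chr1:74515559-74515708: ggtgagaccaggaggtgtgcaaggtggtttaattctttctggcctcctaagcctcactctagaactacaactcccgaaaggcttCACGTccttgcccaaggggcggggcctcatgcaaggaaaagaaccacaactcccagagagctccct
Of the 37 genes, 34 had a promoter entry of 250 bases before to 50 bases after the start. TGCGCA was present in 11 of these 34, against 7.68% of all 27457 promoters, and ACGTG in 10 of 34, against 19.7%. Ndufs5 and Ndufa6 hold TGCGCA in the stretch shown, in Ndufb10 a match overlaps the start and lies outside it, and Ndufs1 holds neither motif. Ndufa3 holds ACGTG. A match describes letters only.

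In the tumours, most complex I genes were lower in the hypoxic than in the normoxic region, but no gene passed the test and tumour 2 differed from the other two. Of the 37 genes 31 had a negative mean difference and 6 a positive one, with a median of -0.49, against 0.10 over all probe sets and -0.13 over the brightest 25%. None passed at adjusted p = 0.05 with limma over all probe sets, where 0% of probe sets did. At an unadjusted p under 0.05, 9 were lower (background 5.7%) and 1, Ndufa3, was higher. In all 3 tumours 11 were lower, against 11% of all probe sets. In the brightest 25% these shares were 14.4% at an unadjusted p under 0.05 and lower, and 23.6% lower in all 3 tumours. The median difference was -0.68 in tumour 1, 0.06 in tumour 2 and -0.94 in tumour 3, and 14 genes were lower in tumours 1 and 3 but higher in tumour 2. The hypoxic arrays lay wholly below the normoxic arrays for 5 genes (Ndufa8, Ndufab1, Ndufs1, Ndufs5 and Ndufs6-ps1; background 4.62%).

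**Figure D1:**
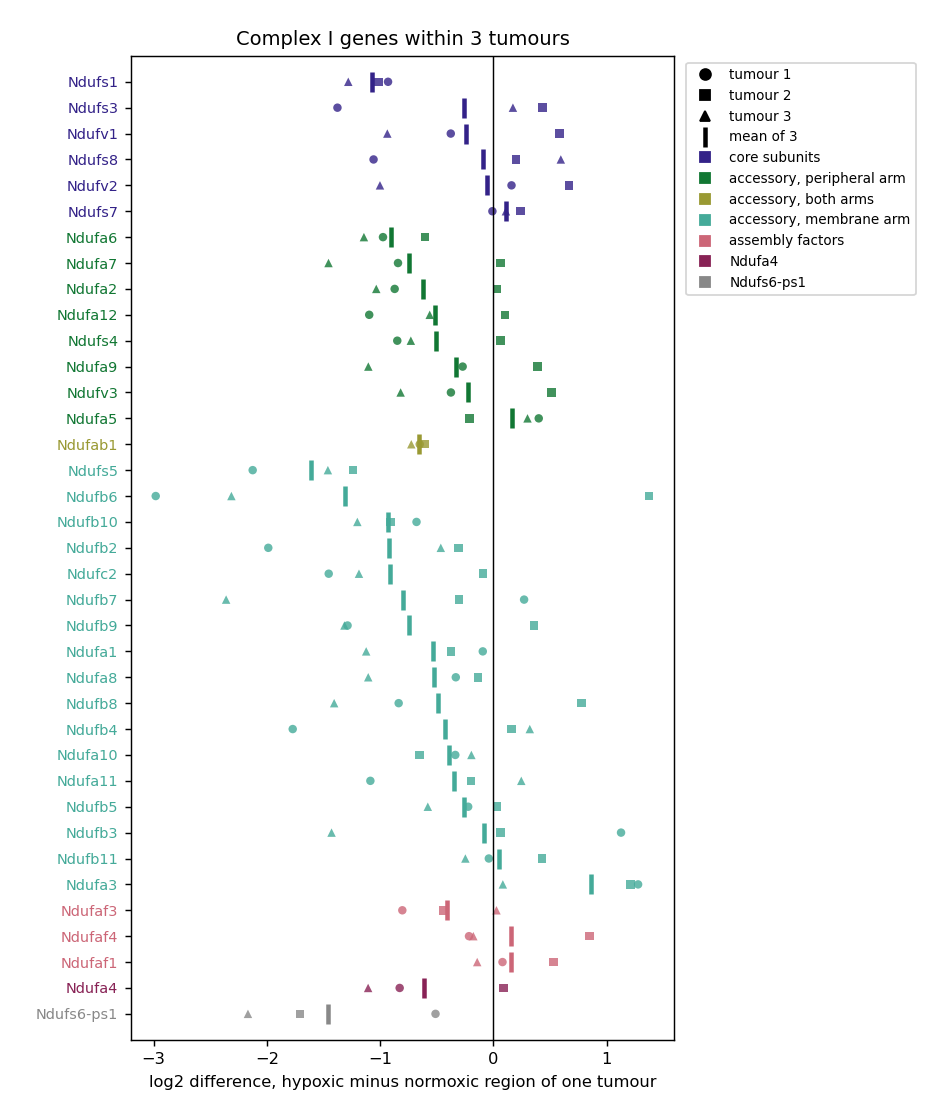
Log2 difference between the hypoxic and the normoxic region of the same tumour (horizontal axis) for the 37 genes (vertical axis), with 1 symbol per tumour, a bar at the mean of 3 and colours for the gene's role. Symbols of tumours 1 and 3 lie mostly left of 0 (31 and 29 genes), and those of tumour 2 lie on both sides (15 genes left of 0).

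Among the core subunits, Ndufs1 differed most. Ndufs1, the large iron-sulfur subunit of the NADH-oxidising module, had normoxic signals of 8.18, 8.46 and 8.27 in tumours 1, 2 and 3, and hypoxic signals of 7.25, 7.44 and 6.99. The groups did not overlap, and the gene was lower in each tumour, by a similar amount. Its mean difference was -1.08 ± 0.19 (SE, n = 3 tumours), 2.11-fold lower, with a limma adjusted p of 0.218. The other 5 core subunits had mean differences between -0.26 and 0.11. Ndufv1, which binds FMN and NADH, had differences of -0.38, 0.58 and -0.94 in tumours 1, 2 and 3, a mean of -0.24 ± 0.31 (limma adjusted p = 0.786). Ndufs3, a subunit of the ubiquinone module, had differences of -1.38, 0.43 and 0.17, a mean of -0.26 ± 0.37 (limma adjusted p = 0.809). For both genes the tumours differed in sign. The median of the 6 core subunits was -0.17.

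The 8 accessory subunits of the peripheral arm had a median of -0.51, and 7 had a negative mean. Ndufa6, which carries an LYR motif and holds the acyl carrier protein Ndufab1 to the complex, had normoxic signals of 8.66, 8.62 and 9.79 and hypoxic signals of 7.69, 8.02 and 8.65. Its hypoxic signal in tumour 3 lay between the normoxic values of tumours 1 and 2, so the groups overlapped, yet each tumour was lower in its hypoxic region. The mean was -0.91 ± 0.20 (limma adjusted p = 0.282). Ndufa9, which lies near the ubiquinone site, had normoxic signals of 7.13, 6.93 and 8.17 and hypoxic signals of 6.86, 7.32 and 7.07. These groups overlapped, and the difference of -0.33 ± 0.30 did not pass (limma adjusted p = 0.723). Ndufab1, the mitochondrial acyl carrier protein, which sits in both arms, had normoxic signals of 8.11, 7.65 and 8.09 and hypoxic signals of 7.45, 7.04 and 7.37. Those groups did not overlap, with a mean difference of -0.66 ± 0.18 (limma adjusted p = 0.375).

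The membrane arm held both the lowest and the highest difference among the 37 genes. Ndufs5, an accessory subunit on the intermembrane side, had normoxic signals of 8.18, 7.45 and 8.64 and hypoxic signals of 6.05, 6.20 and 7.18. The groups did not overlap, and the mean difference was -1.61 ± 0.23, 3.05-fold lower (limma adjusted p = 0.177, the smallest among these genes). A second Ndufs5 probe set gave -1.33 ± 0.22. Ndufb10, another subunit of the intermembrane side, had normoxic signals of 7.91, 8.84 and 9.60 and hypoxic signals of 7.23, 7.93 and 8.40. The groups overlapped because the tumours differed in level, and each tumour was lower in its hypoxic region, with a mean of -0.93 ± 0.20 (limma adjusted p = 0.27).

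Ndufa3, a small membrane-arm subunit, went the other way. Its normoxic signals were 5.85, 7.10 and 8.03 and its hypoxic signals 7.13, 8.31 and 8.11. The hypoxic region was higher by 1.28, 1.21 and 0.08 in tumours 1, 2 and 3, a mean of 0.86 ± 0.28 (limma adjusted p = 0.45), and the groups overlapped. Ndufb6 had differences of -2.98, 1.38 and -2.31, with signals of 4.76, 5.94 and 5.43 in hypoxic regions that were not shown to be above background. The 17 accessory subunits of the membrane arm had a median of -0.52, and 15 had a negative mean.

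Of the 3 assembly factors 2 had a positive mean and 1 a negative one, and none passed. Ndufaf1 and Ndufaf4 had mean differences of 0.16 ± 0.21 and 0.15 ± 0.27, and Ndufaf3 one of -0.41 ± 0.22, with limma adjusted p of 0.636 or more. Ndufaf1 signals, from 4.62 to 5.60 in normoxic and from 5.15 to 5.46 in hypoxic regions, were not shown to be above background. Ndufa4 differed by -0.83, 0.09 and -1.11, a mean of -0.62 ± 0.27 (limma adjusted p = 0.576). Ndufs6-ps1, a pseudogene in RefSeq whose older symbol is Ndufs6, had normoxic signals of 8.80, 8.84 and 10.39 and hypoxic signals of 8.29, 7.13 and 8.23. Those groups did not overlap, with a mean of -1.46 ± 0.33 (limma adjusted p = 0.296). A second Ndufs6-ps1 probe set gave -1.62 ± 0.55. Its probes may read the near-identical Ndufs6 transcript, so which of the genes gave the signal is uncertain.

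**Figure D2:**
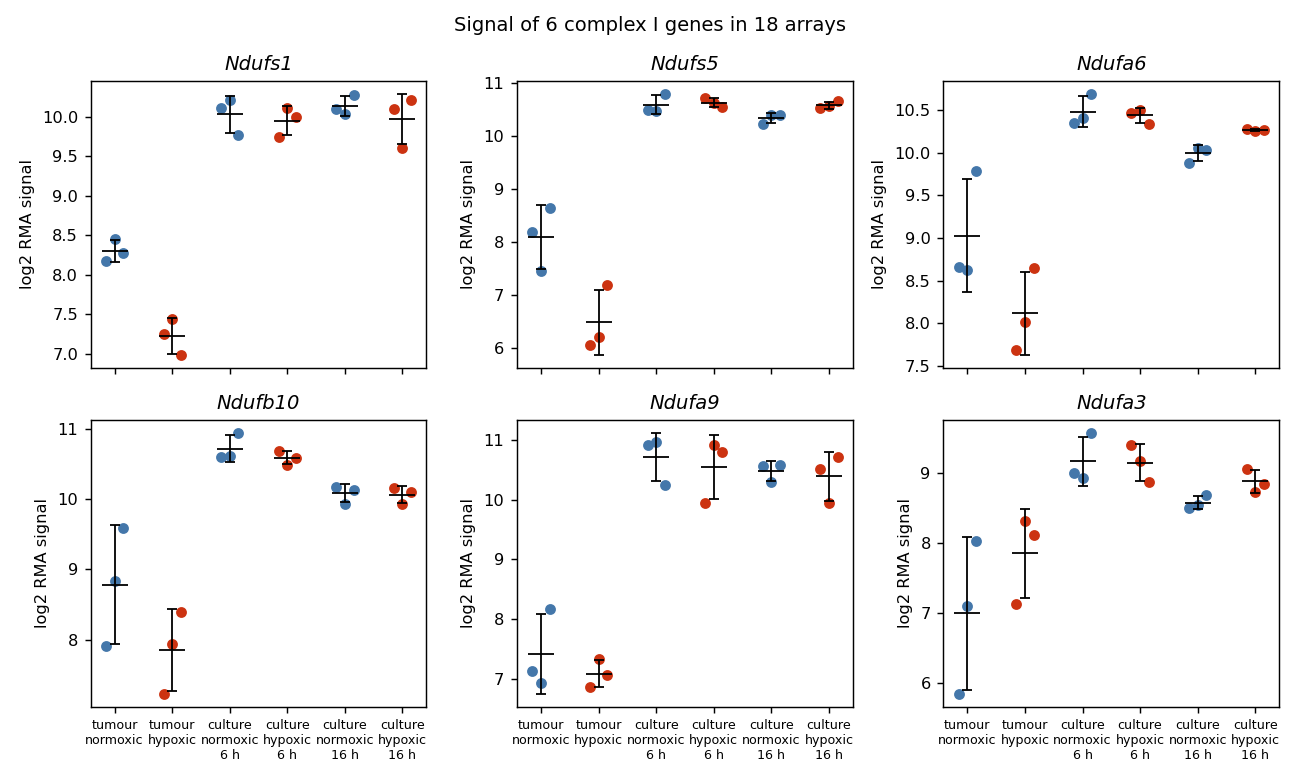
Log2 RMA signal (vertical axis) of 6 genes in the 3 arrays of each of the 6 groups (horizontal axis), with 1 point per array, blue for normoxic and red for hypoxic samples, and the group mean ± SD in black. For Ndufs1 and Ndufs5 the hypoxic tumour arrays lie below all normoxic ones, whereas culture arrays of both oxygen states lie at like levels and above all tumour arrays.

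The result in tumours depended on how the spread was estimated. With all 18 arrays in a fit with the pair as a block, 7 genes passed the test, all lower (5.15% of all probe sets passed in either direction): Ndufa6, Ndufab1, Ndufb10, Ndufc2, Ndufs1, Ndufs5 and Ndufs6-ps1. That fit pools the spread of tumours and cultures, whose median SE was 0.27 and 0.12 when fitted apart. Without tumour 1, Ndufs5 (-1.35, limma adjusted p = 0.0198) and Ndufs6-ps1 (-1.94, limma adjusted p = 0.000583) passed, as did 2.06% of all probe sets.

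Markers of host cells differed in both directions in the same contrast, and none passed the test. The mean level of 12 macrophage markers ran from 7.86 to 8.38 in normoxic and from 7.18 to 7.72 in hypoxic regions, with 9 of 12 lower and a median difference of -0.60. The 12 markers of T and NK cells ran from 6.59 to 7.67 in normoxic and from 6.13 to 6.40 in hypoxic regions, with 11 of 12 lower and a median of -0.43. Several other lists were mostly higher in hypoxic regions: 8 of 8 markers for neutrophils (median 0.28) and 8 of 8 for adipocytes (0.15). Counts were 9 of 11 for skeletal muscle (0.21), 5 of 7 for pericytes and smooth muscle (0.18) and 5 of 7 for glial and neural stem markers (0.17). Of 5 endothelial markers 3 were lower (median -0.11). In this contrast 17726 of all 27363 probe sets were higher, with a median of 0.10, so small positive medians lie near that of the whole array. Array signals have no 0, and in cultures the macrophage and the T and NK cell lists ran from 5.23 to 5.42 and from 5.17 to 5.48. The part of host cells in the complex I differences was not tested.

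In culture the complex I genes differed little between oxygen levels at both times, while the hypoxia check genes passed the test. At 6 h 0 of 37 passed (background 0.19%), and 0 had an unadjusted p under 0.05 (background 5.14%). The median difference was -0.08, and the 95% intervals of all 37 lay within 1 log2 unit of 0, 30 of them within 0.5. At 16 h 0 passed (background 0.705%), 3 had an unadjusted p under 0.05 (background 8.21%), and the median was 0.01. Intervals lay within 1 unit for 36 genes, all but Ndufaf4, and within 0.5 for 28. The test of the 16 h minus the 6 h response called 0 of 37 (background 0%), with 0 at an unadjusted p under 0.05 (background 4.36%).

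Individual values show how narrow these differences were. Ndufs1 had signals of 10.11, 10.21 and 9.76 in the normoxic 6 h cultures numbered 6, 13 and 26, and of 9.75, 10.11 and 9.99 in the hypoxic ones. At 16 h the cultures numbered 22, 28 and 29 gave 10.10, 10.04 and 10.27 in normoxia and 10.09, 9.61 and 10.20 in hypoxia. The groups overlapped at both times, with differences of -0.08 ± 0.16 (limma adjusted p = 0.987) and -0.17 ± 0.16 (limma adjusted p = 0.904). Ndufa9 differed by -0.16 ± 0.26 at 6 h and -0.09 ± 0.26 at 16 h, and Ndufa4 by -0.04 ± 0.12 and -0.02 ± 0.12. Their 95% intervals ran from -0.72 to 0.41 and from -0.66 to 0.48 for Ndufa9, and from -0.29 to 0.21 and from -0.27 to 0.23 for Ndufa4.

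At 6 h the sign of the median rested on the cultures numbered 26. Median differences were 0.10 for number 6, 0.04 for number 13 and -0.34 for number 26. The normoxic culture 26 was the highest of its group for 31 of the 37 genes, against 44.6% of all probe sets. The hypoxic culture 26 was the lowest of its group for 25 of the 37, against 28.1%. The hypoxic group lay wholly below the normoxic one for 3 genes, Ndufb8, Ndufc2 and Ndufs3 (background 3.98%). Ndufs3 had differences of -0.24, -0.03 and -0.34, a mean of -0.21 ± 0.12 (limma adjusted p = 0.984). Ndufc2, Ndufb8 and Ndufaf1 were also lower in each of the 3 pairs, by means of -0.09, -0.11 and -0.27.

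At 16 h the few genes with a small unadjusted p went in both directions. Ndufaf4, an assembly factor of the ubiquinone module, had normoxic signals of 10.34, 10.13 and 10.48 and hypoxic signals of 9.81, 8.93 and 10.15. Only the hypoxic culture 29, at 10.15, reached into the normoxic range, and the mean difference was -0.69 ± 0.24 (limma adjusted p = 0.349). Ndufa6 had normoxic signals of 9.89, 10.06 and 10.04 and hypoxic signals of 10.29, 10.26 and 10.27, groups that did not overlap. The difference was 0.27 ± 0.11 (limma adjusted p = 0.463), and for Ndufs5 it was 0.24 ± 0.11 (limma adjusted p = 0.584). Hypoxic arrays lay wholly above normoxic ones for 7 genes, Ndufa3, Ndufa5, Ndufa6, Ndufb11, Ndufb6, Ndufs5 and Ndufv3 (background 6.6%). Ndufa3, Ndufv2 and Ndufv3 were higher by 0.30, 0.18 and 0.14. A second Ndufv3 probe set gave 0.35 ± 0.17 at 16 h and -0.22 ± 0.17 at 6 h. Among the lower means, Ndufv1 differed by -0.08 ± 0.13 and Ndufb10 by -0.02 ± 0.12.

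**Figure D3:**
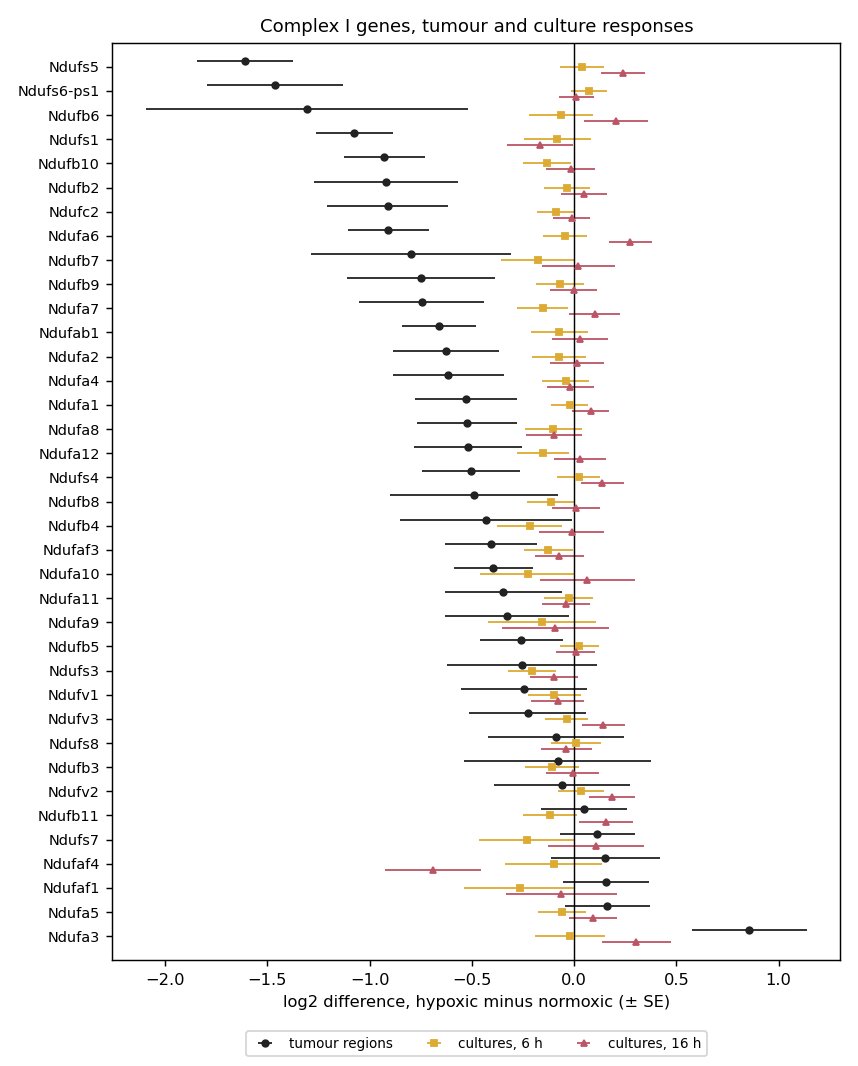
Log2 difference between hypoxic and normoxic samples with its SE (horizontal axis) for the 37 genes (vertical axis) in tumour regions, 6 h cultures and 16 h cultures, ordered by the tumour value. Tumour values spread from -1.61 to 0.86, while culture values lie between -0.69 and 0.30.

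The tumour response was tested directly against the mean culture response, in a fit of all 18 arrays with the pairs as blocks. This fit pools the spread of tumours and cultures, whose median SE was 0.27 and 0.12 when fitted apart. An SE can so fall below that of the tumour difference alone, as for Ndufs5 (0.20 against 0.23). Its adjusted p-values may therefore be too small. For 5 genes the response was lower in tumours than in cultures (background 0.987%): Ndufs5 by -1.75 ± 0.20 (limma adjusted p = 0.00564), Ndufa6 by -1.02 ± 0.17 (limma adjusted p = 0.0268), Ndufs1 by -0.95 ± 0.18 (limma adjusted p = 0.0398), Ndufb10 by -0.85 ± 0.16 (limma adjusted p = 0.0399) and Ndufs6-ps1 by -1.50 ± 0.30 (limma adjusted p = 0.0447). The 4 that are subunits comprise a core subunit, a peripheral-arm accessory subunit and a pair from the membrane arm. The other 32 did not pass, and the median over the 37 was -0.42, against 0.10 over all probe sets and -0.12 over the brightest 25%, of which 2.46% were called lower. Ndufs5 alone passed in each alternative run. The count was 12 without tumour 2 (4.99% of all probe sets called in either direction) and 2 without tumour 3 (2.37%). It was 1 or 2 without any 1 culture array (0.161% to 0.647%). With pairs as blocks, leaving out either array of a culture number gave the same result. Leaving out both cultures numbered 26 was therefore no further check (2, 0.45%). In the fit with no replicate block 2 passed, Ndufs1 and Ndufs5 (0.866%). With the mean of a gene's probe sets 4 passed, all but Ndufs6-ps1 (1.2%). In the main test of this difference 9 of 12 macrophage markers were lower (median -0.80) and 1 passed, and the part of host cells was not tested.

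Most complex I genes were lower in tumour tissue than in culture. In normoxic regions 34 of 37 were lower than in normoxic cultures (limma over all 18 arrays, background 20.7%), and none was called higher. The median difference was -1.29, against 0.24 over all probe sets and -0.62 over the brightest 25%, of which 3926 of 6841 were called lower. For 32 genes all 3 normoxic regions lay below all 6 normoxic cultures (background 16.9%). Hypoxic regions were lower than hypoxic cultures for 34 genes as well (background 22.5%), with a median of -1.84. In the brightest 25% the median was -0.77, and 62.5% were called lower. For 31 genes the hypoxic regions lay wholly below the hypoxic cultures (background 17.6%).

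Single genes differed widely in size. Ndufaf1, an assembly factor of the membrane arm, had signals of 5.16, 4.62 and 5.60 in normoxic regions and between 7.80 and 8.91 in normoxic cultures. The groups did not overlap, with a difference of -3.22 ± 0.25 (limma adjusted p = 1.56e-07). Its tumour signals lay near the mean level of T and NK cell markers in 9L cultures, so a signal above background was not shown there and no fold is given. Ndufa9 was lower by a like amount, -3.18 ± 0.28 (limma adjusted p = 3.7e-07), and Ndufs1 by -1.78 ± 0.15 (limma adjusted p = 2.69e-07). Ndufa4 differed by -2.78 ± 0.29. Ndufb6 differed by -3.32 ± 0.50, and its signal of 4.56 in the normoxic region of tumour 2 was likewise not shown to be above background. Ndufa10, Ndufaf3 and Ndufs7 were not called, with differences of 0.41 ± 0.30, 0.10 ± 0.13 and -0.11 ± 0.20. In hypoxic samples Ndufs5 differed by -4.12 ± 0.23 (limma adjusted p = 3.69e-09), Ndufs1 by -2.73 ± 0.15 (limma adjusted p = 2.61e-09) and Ndufab1 by -2.11 ± 0.14 (limma adjusted p = 1.63e-08). Ndufa10, Ndufaf3 and Ndufs7 again were not called.

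**Figure D4:**
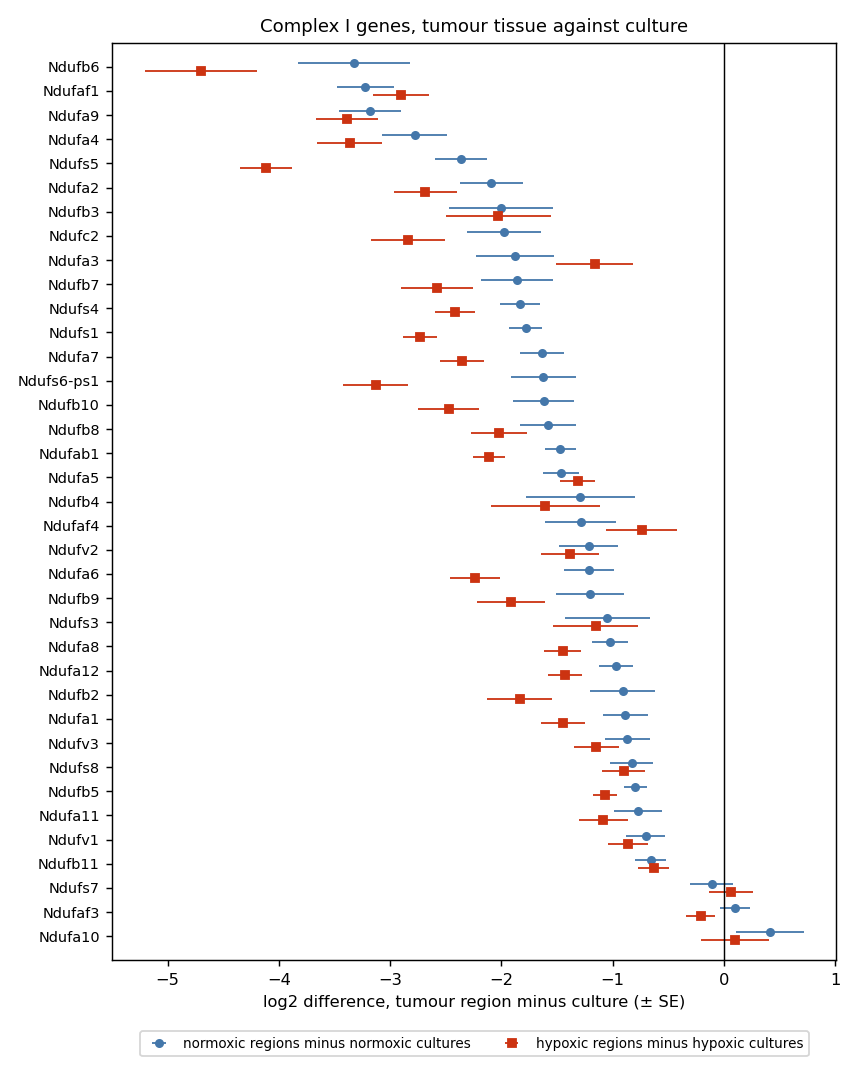
Log2 difference between tumour regions and cultures of the same oxygen label with its SE (horizontal axis) for the 37 genes (vertical axis), ordered by the normoxic value. In both comparisons 34 genes lie below 0 past the test, and Ndufa10, Ndufaf3 and Ndufs7 lie nearest to 0.

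Several measured features differed between tissue and culture in the same samples. All 12 macrophage markers (median difference 2.51) and all 12 T and NK cell markers (median 1.44) were called higher in normoxic regions than in normoxic cultures, as were 8 of 8 adipocyte markers and 8 of 11 skeletal muscle markers, while 1 skeletal muscle marker, Des, was called lower (-0.51). Of all probe sets 43.6% were called higher. Their part in the complex I difference was not tested. The size of the difference moved with the scaling: after quantile normalization 22 genes were called lower and 1 higher (median -0.75), and after cyclic loess 20 lower and 1 higher (median -0.62). Of all probe sets 38.3% and 36.8% were called in either direction after these scalings. Ndufa10, not called as deposited, was the gene added by each of these scalings. Hypoxic samples gave 25 lower and 2 higher, and 24 lower and 1 higher, with medians of -1.15 and -1.01, where 49.9% and 42.7% of all probe sets were called. With each array centred on its median, 34 genes were called in normoxia (47% of all probe sets) and 35 in hypoxia (58.4%). Without the normoxic region of tumour 3 the median was -1.71 and 34 genes were called. That region had the highest complex I signal of the normoxic regions for 29 of 37 genes (27.3% of all probe sets), with a mean level of 9.24 against 8.50 and 8.23.

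Cultures of 16 h had somewhat lower complex I signals than cultures of 6 h. In normoxia 7 genes were lower (background 2.45%): Ndufb10 by -0.64 ± 0.12 (limma adjusted p = 0.00982), Ndufa7 by -0.60 ± 0.12 (limma adjusted p = 0.0176), Ndufa10 by -1.08 ± 0.23 (limma adjusted p = 0.0205), and Ndufa6, Ndufs3, Ndufs8 and Ndufv2. In hypoxia 2 were lower (background 1.59%), Ndufs8 by -0.58 ± 0.12 (limma adjusted p = 0.0253) and Ndufb10 by -0.52 ± 0.12 (limma adjusted p = 0.033). Medians over the 37 genes were -0.30 and -0.21, against 0.03 and -0.01 over all probe sets and -0.09 and -0.06 over the brightest 25%. In that class 4.63% and 3.36% were called lower. Counts of genes called were 2 and 0 after quantile normalization, 1 and 0 after cyclic loess, and 10 and 2 with each array centred on its median. Of all probe sets 3.01% and 2.56%, 3.11% and 2.65%, and 6.23% and 2.36% were then called in either direction. In normoxia 0 were called without culture 28, 1 without culture 22, 2 without culture 26 and 4 without culture 6. In hypoxia 0 were called without culture 22, 28 or 6, and 1 without culture 13 or 26. The 6 h and 16 h cultures carry different numbers, so time and culture set cannot be told apart.

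Other parts of the respiratory chain showed where complex I stood. In tumours the median difference was -0.19 for 7 genes of complex II, -0.24 for 9 of complex III, -0.29 for 12 of complex IV and -0.46 for 14 of ATP synthase, and 0 genes of these lists passed the test. Sdhd, a membrane anchor of succinate dehydrogenase, had a tumour difference of -1.25 ± 0.21 (limma adjusted p = 0.203). Against the culture response Sdhd was lower by -1.38 ± 0.17 (limma adjusted p = 0.00948), and so were Atp5po, the stalk subunit of ATP synthase, by -0.89 ± 0.17 (limma adjusted p = 0.0438) and Cox6c of cytochrome c oxidase by -0.65 ± 0.13 (limma adjusted p = 0.0446). List medians against the culture response were -0.19 for complex II, -0.01 for complex III, -0.42 for complex IV and -0.38 for ATP synthase. The 37 complex I genes had a median of -0.42 there, like that of complex IV. In tumours Uqcrh of complex III differed by -1.03 ± 0.33, Cox7b by -1.29 ± 0.47 and Atp5pf by -1.03 ± 0.28, none of which passed. Against normoxic cultures, genes called lower in normoxic regions were 6 of 7 of complex II, 9 of 9 of complex III, 7 of 12 of complex IV and 12 of 14 of ATP synthase. Of all probe sets 20.7% were called lower, and of the brightest 25% of probe sets 57.4%, a share near that of complex IV.

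**Figure D5:**
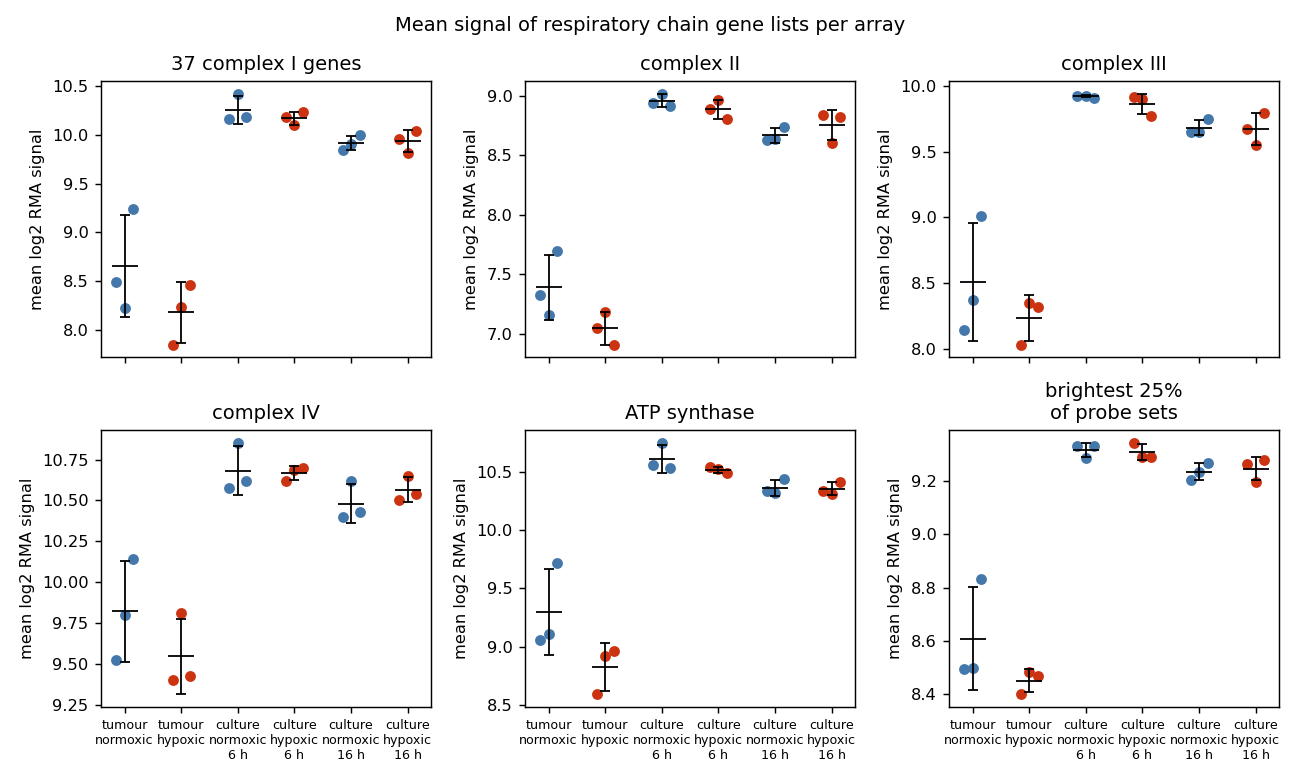
Mean log2 RMA signal (vertical axis, a separate scale in each panel) of the 37 complex I genes, of 4 other respiratory chain lists and of the brightest 25% of probe sets in each array of the 6 groups (horizontal axis), with the group mean ± SD. In each panel the tumour arrays lie below the cultures; for the complex I genes they run from 7.85 to 9.24, against 9.81 to 10.42 in cultures.

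Genes that build or remove mitochondria were read beside the subunits. Of 10 genes of iron-sulfur cluster assembly, which supplies the clusters of complex I, 7 had a negative tumour difference (median -0.56), among them the co-chaperone Hscb (-1.01 ± 0.20) and the carrier Nfu1 (-0.91 ± 0.21). Of 11 regulators of mitochondrial biogenesis 10 had a positive one (median 0.18). None of either list passed the test in tumours or cultures. The 8 other complex I assembly factors measured had a tumour median of 0.05, with Ecsit at -0.63 ± 0.22. Of 6 genes of mitophagy and mitochondrial proteases, 2 passed at each culture time, both higher, and 0 in tumours. Bnip3, a mitophagy receptor, rose in culture by 1.64 ± 0.11 at 6 h and 1.42 ± 0.11 at 16 h (limma adjusted p = 2.2e-05 and 2.4e-05) and was 3.21 ± 0.37 higher in hypoxic regions (limma adjusted p = 0.145). Its paralog Bnip3l rose by 1.04 ± 0.10 and 0.75 ± 0.10 (limma adjusted p = 0.000167 and 0.00175). Lonp1, a mitochondrial protease, had differences of 0.61, 0.51 and 0.70 in 6 h cultures, 16 h cultures and tumours, none past the test.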

How the data were processed

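Total RNA from captured tumour regions and cultures was amplified and hybridized to Affymetrix arrays, as the labels' protocols state. The authors deposited log2 signals per probe set. The submitters' processing notes name RMA and Partek 6.5b for them. It is not stated in those notes or the labels if all 18 arrays entered 1 normalization. RMA as usually run equalizes array distributions, yet array medians differed here, so other scalings were tried. Of 27363 probe sets, the annotation lists 15420, of which 15097 have 1 symbol and 323 several; 11943 are unnamed here. No array was identical to another. Precision is limited by the number of arrays.

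Tests used R 4.3.3 and limma 3.58.1 (lmFit, eBayes), with p-values adjusted by Benjamini-Hochberg across the 27363 probe sets and called at 0.05, both directions tested. The fits were tested on simulated data. Tumour regions were compared with tumour as a block over 6 arrays, culture responses over the 12 culture arrays in 4 groups, tumour against culture responses over 18 arrays with 9 pairs as blocks, and tissue against culture over 18 arrays in 6 groups. Both regions come from 1 tumour, which pairs them. Deviations of same-numbered cultures correlated at 0.125, 0.193 and 0.192 at 6 h and at 0.13, 0.188 and 0.307 at 16 h, each above 0.1. Same-numbered cultures were taken as pairs in the fits with 9 pairs as blocks and in the differences given per number. The main tests and intervals of the culture responses were not paired, and the culture number was a block there only as an alternative. Tumours gave 0.128, 0.0357 and 0.273. Culture 6 and tumour 2 correlated more with another number (0.177 and 0.167).

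Genes named with full values are Ndufs1, Ndufa9, Ndufa4, the 3 core subunits of smallest tumour p, the 5 per direction of smallest p among those moving one way in all 3 pairs (tumour, 6 h, 16 h), the 3 per direction of smallest p among those called elsewhere, and the 2 of smallest tumour p per pathway list; others are named as extremes or counts. The members and lists were chosen with earlier results of these data known. Alternatives were other scalings, a filter on dim probe sets, another variance model, other sample sets and blocks, the mean of a gene's probe sets, and leaving out each array.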

Additional observations from a re-analysis of the deposited data

Results flagged for a closer look

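For 5 of the 37 genes the response to hypoxia differed between tumours and cultures. They passed the interaction test (limma adjusted p under its threshold over all probe sets). That test pools the wider spread of tumours with the narrower one of cultures, so its adjusted p-values may be too small. The tumour response minus the mean culture response was -1.75 for Ndufs5, -1.50 for Ndufs6-ps1, -1.02 for Ndufa6, -0.95 for Ndufs1 and -0.85 for Ndufb10. In all 3 tumours these genes were lower in the hypoxic region, but neither the tumour differences (limma adjusted p from 0.177 to 0.296) nor the culture differences of these genes passed on their own. Groups of 3 arrays are too small for a test of single outlying samples. Ndufs6-ps1 is a pseudogene in RefSeq whose probes may read Ndufs6.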

How the results depend on the processing

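The count of members called was 0 under each alternative run for the 6 h response, the 16 h response and their difference, also with the culture number as a replicate block (0 at each). For the tumour regions it was 7 with all 18 arrays and the pair as a replicate block, 0 with no replicate block, and 0 to 2 when 1 tumour was left out. For the tumour response minus the culture response (5) it was 3 with trended and robust variance, 2 with no replicate block and 4 with the mean of a gene's probe sets. It was 2 with both arrays of culture 26 left out (chosen after seeing the data), which gave the same result as without either of them. With 1 tumour or 1 culture array left out it was 1 to 12, and both arrays of a culture number gave the same count. Tissue against culture in normoxia (34, all lower) gave 21 after cyclic loess (20 lower, 1 higher) and 23 after quantile normalization (22 lower, 1 higher), and in hypoxia (34) 25 and 27. With each array centred on its median these counts were 34 in normoxia and 35 in hypoxia. The 16 h minus 6 h counts were 2 and 0 after quantile normalization, 1 and 0 after cyclic loess, and 10 and 2 with each array centred on its median. Leaving out 1 array gave 0 to 7 in normoxia and 0 to 2 in hypoxia. Signs turned only where differences were small and never past the test. With 1 tumour left out, Ndufa9 ran from -0.69 to 0.058, Ndufv1 from -0.66 to 0.10 and Ndufs3 from -0.60 to 0.30. With 1 array left out at 6 h, Ndufs1 ran from -0.22 to 0.018, Ndufa9 from -0.39 to 0.15, Ndufa4 from -0.084 to 0.016 and Ndufv1 from -0.24 to 0.043. At 16 h Ndufs1 ran from -0.29 to 0.013, Ndufb10 from -0.089 to 0.053, Ndufa9 from -0.26 to 0.13 and Ndufa4 from -0.0849 to 0.12. Ndufa4 was also 0.054 at 6 h with both arrays of culture 26 left out, and at 16 h Ndufb10 and Ndufa4 were 0.016 and 0.016 with each array centred on its median. The cause was not tested. Over all alternatives, named members kept direction and call in 584 results and lost the call in 47, gained it in 7 and turned in 17.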
